A study of Mus musculus with 8 samples.

Results

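The 32 genes described here encode the proteins that form a fibrin clot, restrain its growth and dissolve it. They were chosen by symbol as the named coagulation and fibrinolysis genes. All 32 were found among the 52459 genes of the bulk count table and among the 31053 genes of the single-cell matrices. All 32 also passed the filter on low counts, which kept 16487 genes for testing. By role, 12 make or activate fibrin, 5 have wide cellular sources, 8 are anticoagulants or their receptors, and 7 belong to fibrinolysis.

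The tumors grew for 3 weeks in C57BL/6 mice from 100000 injected FC1242 cells, a mouse pancreatic cancer line of the KPC type. The primary group comprised 3 bulk libraries of pancreatic tumors, and the liver group 3 bulk libraries of tumors that were metastatic to the liver. Infiltrating leukocytes were sorted on CD45 from tumors of both sites and run on the 10x platform, with 1 library for the pancreas and 1 for the liver. All groups share the cell line and the strain, the labels name no further treatment or allele, and they do not say how many mice stand behind a library, so p-values measure the spread between these libraries.

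In blood clotting, tissue factor (F3) on cells outside the vessel binds factor VII, which activates factor X, and factor X with its cofactor factor V turns prothrombin into thrombin. Thrombin cleaves fibrinogen to fibrin, which factor XIII crosslinks. Antithrombin, protein C with its cofactor protein S, and tissue factor pathway inhibitor hold the cascade back, and plasmin, made from plasminogen by the activators Plat and Plau, digests fibrin. Hepatocytes secrete most of the soluble factors, whereas receptors and activators are made by tumor, endothelial, stromal and myeloid cells.

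Bulk libraries held 27481390 to 36743247 reads. Liver libraries carried liver tissue: the summed level of 4 hepatocyte genes (Alb, Apoa1, Ttr and Hpx) was 67.5 to 528 CPM (read counts scaled to library totals with TMM factors) in the primary libraries and 40530 to 83610 in the liver libraries. Primary replicate 2 stood apart from the other primary libraries, with 7444 CPM of the epithelial genes Epcam, Krt8, Krt18 and Krt19 against 2769 and 3333, and with the 528 CPM of hepatocyte genes. The epithelial sum was almost wholly keratin, and each keratin lay lower in all liver libraries. Epcam went the other way, at 0.811, 0.381 and 1.52 CPM in the primary and 5.455, 1.95 and 2.62 in the liver libraries. Macrophage genes (Adgre1, Csf1r and Cd68) summed to 49.0 to 118 CPM in primary and 161 to 204 in liver libraries, and endothelial genes (Pecam1, Cdh5 and Kdr) to 50.3 to 62.6 and 101.1 to 144. In bulk tissue, fewer cells of a type and less RNA per cell cannot be told apart, and the part of these cell types in the changes below was not tested.

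Promoter sequences are shown first, to set the liver-made factors beside factors made by tumor and myeloid cells. RefSeq promoter entries (GRCm38.p6) existed for 24 of the 32 genes, and the 250 bases before each start were searched on both strands for short core motifs. The GC-box core GGGCGG, bound by SP1, occurred in 1 of 16 genes that were over 20-fold higher in the liver tumors and in 6 of the 8 others, against 35.36% of 27025 genes in the table. The liver factor motif HNF1 (GTTAATNAT) occurred in 2 of the 24, Fga and F13b, against 0.87% of all genes. The HNF4A core CAAAGTCC occurred in 0 of 24 and in 1.38% of all genes, the C/EBP core TTGCNNAA in 7 of 24 and in 10.84%, and the AP-1 core TGANTCA in 6 of 24 and in 7.82%. These matches describe letters in a window and are not binding sites. The stretches below, 5′ to 3′ on the gene's strand, show the 3 fibrinogen genes and F13b beside F3 and Plaur, with every match to these motifs in capitals.
Fga (chr3:83025903-83026075, plus strand): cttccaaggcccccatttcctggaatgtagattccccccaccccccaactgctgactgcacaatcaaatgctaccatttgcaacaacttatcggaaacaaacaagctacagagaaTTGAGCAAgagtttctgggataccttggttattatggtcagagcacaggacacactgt
Fgb (chr3:83049864-83050113, minus strand): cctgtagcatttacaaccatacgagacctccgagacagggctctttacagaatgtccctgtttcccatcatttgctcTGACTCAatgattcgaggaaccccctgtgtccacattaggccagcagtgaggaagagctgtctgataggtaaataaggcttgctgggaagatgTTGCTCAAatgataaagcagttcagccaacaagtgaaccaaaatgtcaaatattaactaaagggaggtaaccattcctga
Fgg (chr3:83007474-83007723, plus strand): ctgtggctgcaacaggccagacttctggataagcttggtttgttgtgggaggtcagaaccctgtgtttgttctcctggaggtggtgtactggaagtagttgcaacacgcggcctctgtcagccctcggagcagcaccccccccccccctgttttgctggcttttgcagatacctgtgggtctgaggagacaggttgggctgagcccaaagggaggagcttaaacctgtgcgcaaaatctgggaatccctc
F13b (chr1:139501457-139501701, plus strand): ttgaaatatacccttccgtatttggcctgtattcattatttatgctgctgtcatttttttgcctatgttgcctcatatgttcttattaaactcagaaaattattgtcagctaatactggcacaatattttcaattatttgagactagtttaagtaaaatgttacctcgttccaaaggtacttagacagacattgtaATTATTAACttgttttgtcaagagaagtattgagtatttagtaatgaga
F3 (chr3:121723287-121723536, plus strand): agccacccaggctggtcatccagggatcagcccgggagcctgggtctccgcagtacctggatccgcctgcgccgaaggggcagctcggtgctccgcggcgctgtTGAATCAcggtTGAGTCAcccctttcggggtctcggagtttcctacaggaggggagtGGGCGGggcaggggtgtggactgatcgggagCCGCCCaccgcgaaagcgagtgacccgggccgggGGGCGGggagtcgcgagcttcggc
Plaur (chr7:24462233-24462482, plus strand): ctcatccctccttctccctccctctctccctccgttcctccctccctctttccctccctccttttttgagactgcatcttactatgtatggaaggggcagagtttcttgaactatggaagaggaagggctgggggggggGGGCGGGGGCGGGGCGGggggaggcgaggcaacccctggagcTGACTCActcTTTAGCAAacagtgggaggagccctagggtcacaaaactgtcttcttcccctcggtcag
The capitals mark a C/EBP match in Fga, an AP-1 and a C/EBP match in Fgb, no match in Fgg, and an HNF1 match in F13b at position -54 from the RefSeq start. F3 holds a pair of AP-1 matches at -146 and -135 and 3 GC boxes, and Plaur holds 3 GC boxes, an AP-1 match at -69 and a C/EBP match at -59. The HNF1 match of Fga lies at -46, in a stretch that GENCODE places inside a longer Fga transcript and that is therefore not printed. On the chromosome the 3 fibrinogen genes are neighbors within chr3:83007724-83049863 (GENCODE M21, GRCm38), with Fgg and Fga on the plus strand and Fgb on the minus strand.

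Of the 32 genes, 23 were higher and 3 lower in the liver tumors in edgeR's quasi-likelihood test (Benjamini-Hochberg adjusted p under 0.05 over all genes tested). Over all 16487 genes the test called 16.7% higher and 6.26% lower, or 2755 and 1032 genes, and with upper-quartile scaling 2612 and 1689. The members' median log2 change (liver minus primary) was 6.09, beside -0.07 over all genes. All liver libraries lay above all primary libraries for 23 members and below them for 5. Over all 16487 genes this held for 3926 and 3337, so groups without overlap were common among genes of any kind. The genes fell into 3 ranges: 19 were 32.05-fold to 12290-fold higher, 4 were 3.03-fold to 17.55-fold higher, and 9 ranged from 0.2495-fold to 1.23-fold, which held all 3 that fell. As a share of all reads, the 32 genes took 0.1181%, 0.09398% and 0.1048% of the primary libraries and 2.432%, 2.802% and 2.107% of the liver libraries.

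**Figure D1:**
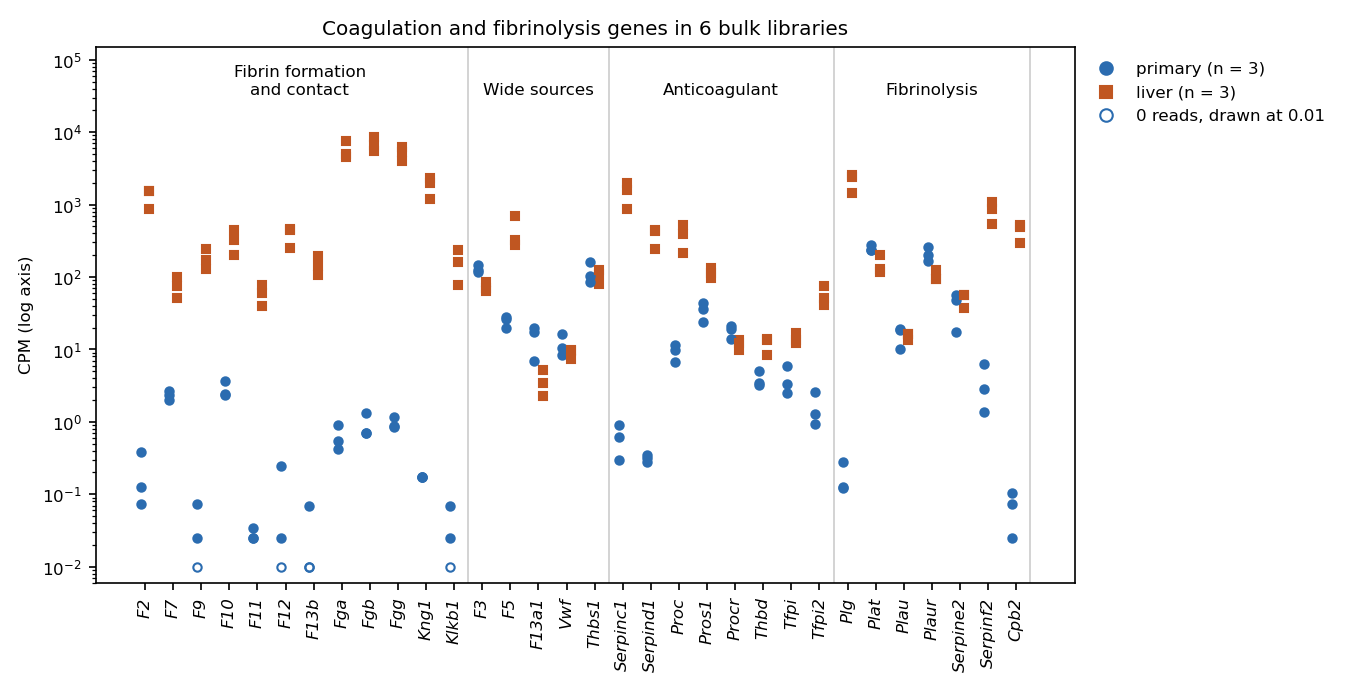
CPM (log axis) of the 32 genes in each of 3 primary (blue circles) and 3 liver (orange squares) bulk libraries, grouped by role, with open circles for libraries at 0 reads. The 19 genes over 20-fold higher separate by 1 or more decades between sites, whereas F3, Plaur and F13a1 lie lower in all 3 liver libraries.

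All 12 genes of fibrin formation and contact activation rose, with log2 changes between 4.995 (F7) and 13.34 (Kng1) and a median of 12.35. The 3 chains of fibrinogen, the soluble precursor of fibrin, rose together. Fgb, the beta chain, was at 0.713, 0.693 and 1.34 CPM in the primary libraries and at 6725, 8636 and 5414 in the liver libraries, a log2 change of 12.87 (SE 0.58, edgeR adjusted p = 3.69e-06). Fga, the alpha chain, was at 0.418, 0.901 and 0.547 CPM against 4994, 7451 and 4579, and Fgg, the gamma chain, at 0.861, 1.18 and 0.870 against 5381, 6311 and 3937. No primary library overlapped a liver library for any of the chains. Together the 3 chains took 1.363%, 1.785% and 1.36% of all liver reads and 0.0002506% to 0.0003348% of primary reads. An overlapping gene on the opposite strand (Gm30097) shares exon bases with Fgg, and the strand setting of the counting is not given in the sources used here.

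F2, which encodes prothrombin, was at 0.0738, 0.381 and 0.124 CPM in the primary and 1543, 1532 and 865 CPM in the liver libraries (log2 change 12.81, SE 0.68, edgeR adjusted p = 6.77e-06). Kng1, the kininogen that carries prekallikrein and gives rise to bradykinin, went from 0.172 to 0.174 CPM in the primary libraries to 2360, 1974 and 1190 in the liver libraries. Reads of Kng1 and its paralog Kng2 may have been split by the counting. Klkb1 (plasma prekallikrein) and F12, the protease it activates, were 5038-fold and 4317-fold higher. For several of these genes the primary libraries were at the limit of detection: F13b had 0, 2 and 0 reads, Klkb1 0, 2 and 1, F9 (the protease deficient in hemophilia B) 1, 0 and 3, and F11 (the protease above F9) 1 read in each. Their folds therefore rest on primary levels of a few reads. Klkb1 shares exon bases on its own strand with Gm45753.

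F7 and F10 had the smallest changes of the 12 genes and higher primary CPM than the other 10. F7, which binds tissue factor, was at 2.66, 1.98 and 2.39 CPM in the primary libraries and at 99.3, 74.2 and 51.4 in the liver libraries, a log2 change of 4.995 (SE 0.31, edgeR adjusted p = 1.52e-05). F10, the protease that makes thrombin, was at 3.62, 2.32 and 2.41 CPM against 443, 321 and 199, a change of 6.84 (SE 0.41). The groups did not overlap, and the primary values were close to each other. The genes lie next to each other on chr8:13026034-13035809 (F7) and chr8:13037308-13056676 (F10).

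The liver libraries differed among themselves in a shared order. Of the 19 genes over 20-fold higher, 19 were lowest in liver replicate 3, 11 were highest in replicate 1 and 8 in replicate 2. Hepatocyte genes followed the same pattern, at 83610, 78770 and 40530 CPM. The TMM factors of the liver libraries, 0.7978, 0.7977 and 0.9772, lowered the CPM of every gene in replicate 3 relative to replicates 1 and 2. Set against 1000 hepatocyte-gene reads, 13 of the 19 genes varied by 1.5 times or less across the liver libraries. F2 was at 18.45, 19.45 and 21.34 reads per 1000 and Serpinc1 at 23.56, 19.97 and 21.18. The 6 that varied more were Fga, Fgb, Fgg, F9, F13b and Tfpi2, and all 6 were highest in replicate 3. This was not particular to them: of the 13 steadier genes, only F10, Klkb1, Serpinc1 and Proc were highest elsewhere, in replicate 1. Alb, the largest of the hepatocyte genes, was at 54320, 56270 and 26830 CPM. Fga was at 59.73, 94.58 and 113 reads per 1000 hepatocyte reads, and Fgb at 80.44, 109.6 and 133.6. Replicate 3 was thus lowest in fibrinogen CPM and highest per hepatocyte read, while its raw share of reads (1.36%) was close to that of replicate 1 (1.363%).

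Among the 5 genes with wide sources, 1 rose, 2 fell and 2 were not called. F5, the cofactor of factor X, was at 26.4, 28.1 and 19.9 CPM in the primary libraries and 281, 699 and 327 in the liver libraries (log2 change 4.13, SE 0.41, edgeR adjusted p = 0.000213). Its primary level per length, 3.31 ± 0.612 FPKM (SD, n = 3), was above that of Fgg (0.46 ± 0.0866) and F2 (0.0433 ± 0.0321). Per 1000 hepatocyte reads it varied from 3.36 in liver replicate 1 to 8.87 in replicate 2. F5 shares exon bases with Gm16548 on the opposite strand.

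F3, tissue factor, fell. It was at 117, 146 and 124 CPM in the primary libraries and 63.4, 70.7 and 85.3 in the liver libraries, a log2 change of -0.82 (SE 0.19, edgeR adjusted p = 0.0183). Every liver library lay below every primary library. Against 1000 reads of the epithelial genes, however, F3 was at 42.38, 19.67 and 37.27 in the primary and 27.57, 32.46 and 41.65 in the liver libraries, and the groups overlapped. The ratio of the means was 1.02 on that scale, and primary replicate 2, with the most epithelial reads, was lowest. The call on F3 was lost without liver replicate 2 (log2 change -0.79, adjusted p = 0.0969).

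F13a1, the catalytic subunit of factor XIII, fell most, from 17.3, 19.9 and 6.96 CPM to 2.29, 3.45 and 5.27, a log2 change of -1.99 (SE 0.46, edgeR adjusted p = 0.0177). The groups did not overlap, with primary replicate 3 and liver replicate 3 nearest to each other. Per 1000 epithelial reads, however, F13a1 overlapped, at 6.243, 2.667 and 2.089 against 0.9943, 1.583 and 2.574. The edgeR call on F13a1 was lost without liver replicate 1 (adjusted p = 0.067) or liver replicate 2 (0.0844). F13b, the carrier subunit of the same enzyme, moved the other way with a log2 change of 12.70 (SE 0.63). The macrophage genes Csf1r and Adgre1 rose in the same libraries by 1.61 (SE 0.27) and 1.66 (SE 0.25), opposite in direction to F13a1, and the third macrophage gene, Cd68, was not called (0.10, SE 0.43).

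Vwf, the adhesive protein of endothelium and platelets, was at 8.36, 16.4 and 10.4 CPM against 7.39, 9.39 and 9.79 and was not called (log2 change -0.40, SE 0.30). The endothelial genes Kdr and Cdh5 rose by 2.01 (SE 0.23) and 0.87 (SE 0.23), while Pecam1 was at 0.56 (SE 0.21, not called). Per 1000 endothelial reads Vwf was at 159.4, 261.1 and 205.5 in the primary and 72.35, 65.2 and 96.85 in the liver libraries, without overlap. Thbs1, thrombospondin-1 of platelets and activated macrophages, was at 160, 85.2 and 104 CPM against 79.5, 109 and 126. Its groups overlapped and it was not called (log2 change -0.15, SE 0.28).

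**Figure D2:**
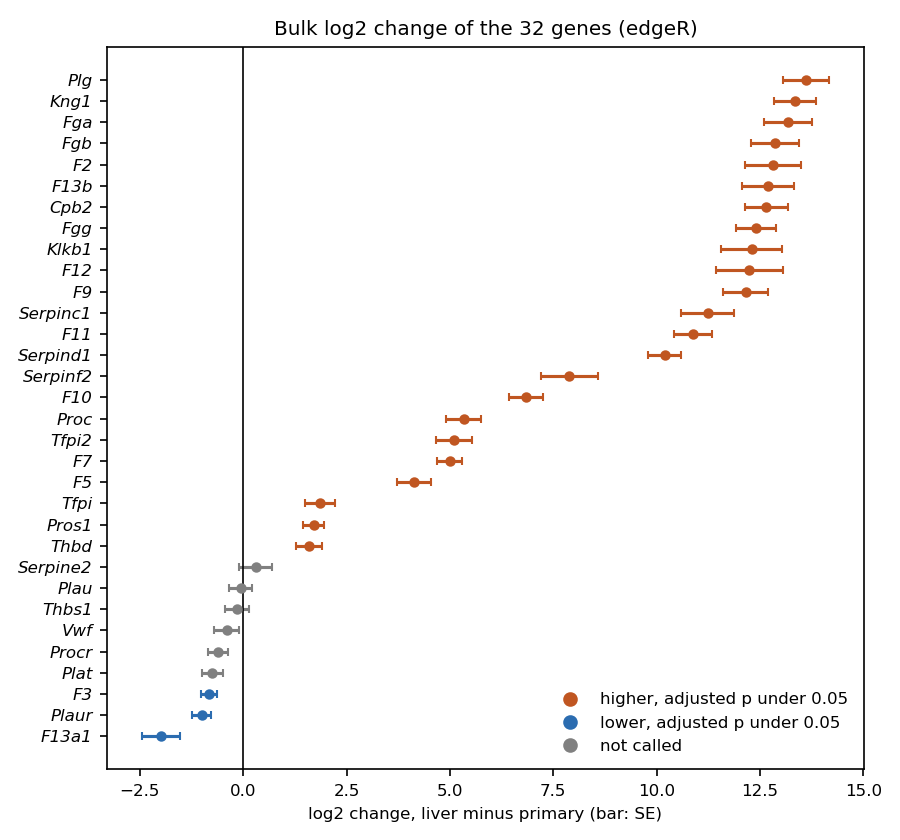
Log2 change (liver minus primary, points) with its SE (bars) for the 32 genes, ordered by size and colored by the call at an adjusted p of 0.05. A block of genes lies above 10, F7, Proc, Tfpi2, F10 and Serpinf2 lie between 4.995 and 7.89, and F13a1, Plaur and F3 are the 3 called below 0.

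Of the 8 anticoagulants, 7 rose and Procr was not called. Serpinc1, antithrombin, was at 0.295, 0.624 and 0.895 CPM in the primary and 1969, 1573 and 859 in the liver libraries, a log2 change of 11.24 (SE 0.64). Serpind1, heparin cofactor II, changed by 10.20 (SE 0.40). Proc, the protein C zymogen, was detectable in primary tumors at 6.64, 11.5 and 9.82 CPM and reached 520, 388 and 216 in liver tumors (5.33, SE 0.41). Serpinc1 shares exon bases with Zbtb37 on the opposite strand.

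Pros1, Tfpi and Thbd changed far less. Pros1, the cofactor of protein C, was at 36.6, 23.9 and 43.9 CPM against 112, 133 and 95.6 (log2 change 1.71, SE 0.26, edgeR adjusted p = 0.00225). Tfpi, the inhibitor of the tissue factor complex, was at 5.93, 2.53 and 3.28 CPM against 12.4, 17.0 and 13.3 (1.86, SE 0.36, adjusted p = 0.00761). Thbd, the thrombin receptor of endothelium, was at 5.11, 3.46 and 3.21 CPM against 8.45, 13.5 and 13.8 (1.60, SE 0.32, adjusted p = 0.00867). For all 3 genes every liver library lay above every primary library. Per 1000 endothelial reads Thbd overlapped between sites, at 97.52, 55.31 and 63.74 against 82.69, 93.65 and 136.3, whereas Tfpi did not, at 113, 40.38 and 65.22 against 121.4, 118.1 and 131.6.

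Tfpi2, a Kunitz inhibitor related to Tfpi, behaved unlike it, going from 2.58, 0.935 and 1.29 CPM to 51.7, 74.6 and 40.7, a log2 change of 5.10 (SE 0.44, edgeR adjusted p = 0.000104). Procr, the protein C receptor, was at 21.2, 14.0 and 19.1 CPM in the primary and 13.6, 9.83 and 12.3 in the liver libraries (-0.60, SE 0.24, adjusted p = 0.110). All liver libraries lay below all primary ones for Procr, but the change missed the threshold.

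In fibrinolysis 3 of 7 genes rose and 1 fell. Plg, plasminogen, had the largest log2 change of the 32 genes, 13.61 (SE 0.56, edgeR adjusted p = 3.14e-06), from 0.123, 0.277 and 0.124 CPM to 2435, 2554 and 1453. It shares exon bases with Slc22a3 on the opposite strand. The plasmin inhibitor Serpinf2 (alpha-2-antiplasmin) was already at 1.35, 6.38 and 2.84 CPM in primary tumors and reached 1073, 879 and 537 in liver tumors (7.89, SE 0.69). Cpb2, the carboxypeptidase that trims fibrin and slows its lysis, went from 0.0246, 0.104 and 0.0746 CPM to 529, 496 and 295.

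The activators and their receptor did not rise. Plaur, the urokinase receptor, fell from 167, 263 and 201 CPM to 95.2, 93.6 and 125 (log2 change -1.01, SE 0.24, edgeR adjusted p = 0.0180). No library overlapped between sites, and primary replicate 2 was highest. Per 1000 epithelial reads Plaur overlapped, at 60.3, 35.28 and 60.41 against 41.4, 42.96 and 61.09. Its call was lost without liver replicate 1 (adjusted p = 0.051) or replicate 2 (0.0995).

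Plat, tissue plasminogen activator, was at 279, 237 and 237 CPM in the primary and 116, 129 and 204 in the liver libraries, a log2 change of -0.75 (SE 0.25, edgeR adjusted p = 0.0689). The liver libraries lay below the primary ones, and liver replicate 3 was closest to them. The gene passed the threshold in DESeq2 (adjusted p = 0.0464), limma-voom (0.0479), limma-trend on FPKM (0.0443), edgeR with upper-quartile factors (0.0451) or no filter (0.0438), and without liver replicate 3 (0.0179). Plau, urokinase, was at 18.8, 10.0 and 19.4 CPM against 16.5, 13.5 and 16.2 (-0.06, SE 0.28), and Serpine2, a protease nexin that inhibits thrombin and urokinase, at 56.2, 17.2 and 48.6 against 55.8, 37.7 and 56.4 (0.30, SE 0.40). Both overlapped between sites, and primary replicate 2 was the lowest library for both.

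**Figure D3:**
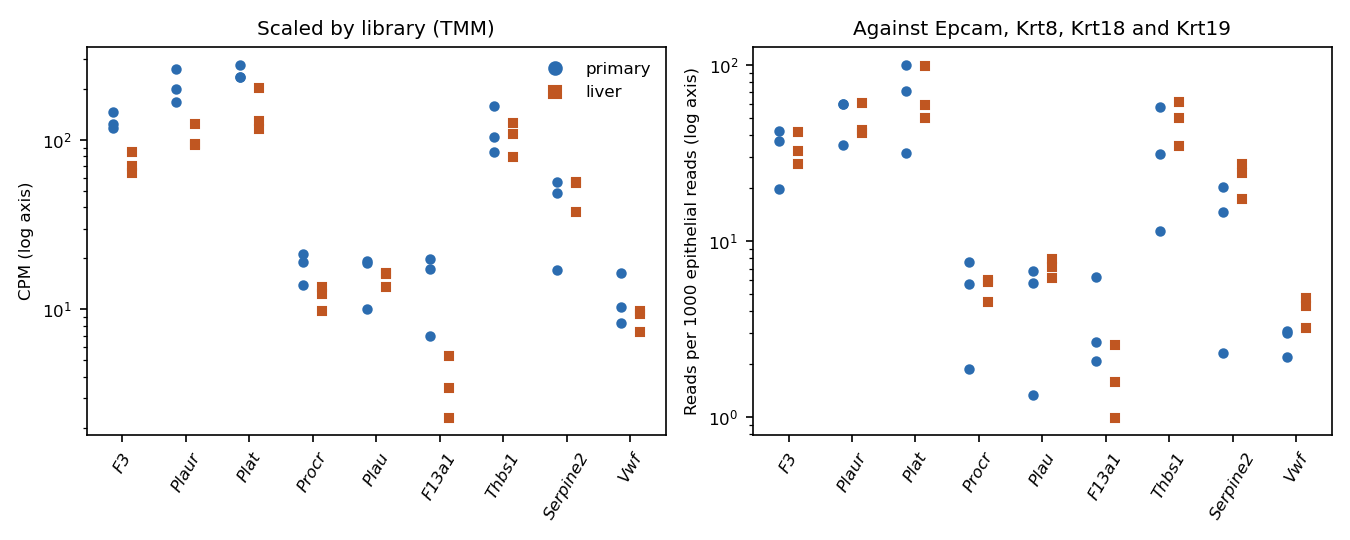
The 9 genes with no rise, per library (blue circles, primary; orange squares, liver), in CPM (left) and as reads per 1000 reads of Epcam, Krt8, Krt18 and Krt19 (right), on log axes. F3, Plaur, Plat and Procr lie lower in liver libraries on the left and overlap on the right, where primary replicate 2 is lowest. F13a1 also lies lower on the left and overlaps on the right, where liver replicate 1 is lowest.

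Levels can be compared between genes only per length, in FPKM, where the order of the genes differed between sites. In primary tumors Plaur was highest at 79.7 ± 18.8 FPKM (SD, n = 3), then F3 at 50.8 ± 6.29, Plat at 39.9 ± 4.04 and Thbs1 at 19.0 ± 6.42. The lowest FPKM of Plaur (63.62) lay above the highest of F3 (57.96), and F3 lay above Plat (44.51 at most). In liver tumors the 3 fibrinogen chains led at 2506 ± 622 (Fgg), 1899 ± 560 (Fga) and 1830 ± 466 FPKM (Fgb), and their ranges overlapped. Plg (785 ± 232) and Kng1 (586 ± 194) followed, and F13a1 was last at 0.543 ± 0.216, next to Vwf at 0.553 ± 0.0808, within their spread.

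Of 45 other genes of hemostasis listed with the members, 39 were tested, and 17 were higher and 4 lower in the liver tumors. Over all 16487 genes tested, 16.7% were higher and 6.26% lower. The 3 of lowest p among the higher were Hrg, a histidine-rich plasma glycoprotein (log2 change 13.26, SE 0.40), Kng2 (10.25, SE 0.42) and Serpina10, the inhibitor of activated factor X that acts with protein Z (10.25, SE 0.50). The 4 lower were Bdkrb2, the bradykinin B2 receptor (-2.19, SE 0.47), F2rl1 (-0.80, SE 0.19) and F2rl3 (-1.98, SE 0.58), protease-activated receptors, and Anxa2, a cell-surface receptor for Plat and plasminogen (-0.97, SE 0.26). Anxa2 was at 2336, 2652 and 2828 CPM in the primary and 1324, 1147 and 1529 in the liver libraries. F2rl3 was added to the named genes after its values were seen and had 2 to 47 reads per library.

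The single-cell libraries were used to ask which cells held these transcripts. Cells with at least 1500 UMIs (unique molecular identifiers, counted transcripts) and at most 10% mitochondrial UMIs numbered 2249 in the primary and 7509 in the liver library, with medians of 12012 and 6757 UMIs and 7 barcodes in common. Joint clustering gave 25 clusters, named from marker genes. Monocyte or macrophage-like cells numbered 1468 and 2942, neutrophil-like 221 and 510, dendritic cell-like 67 and 136, T cell-like 119 and 159, and fibroblast-like 14 and 15. Epithelial tumor cell-like cells numbered 320 and 3487 and went against the CD45+ gate, with 8.51 and 14.5 CPM of Ptprc (CD45) against 494 and 281 in macrophage-like cells. No cluster was named endothelial, and hepatocyte-like cells were 0 and 12. With 1 library per site no test was possible, and all intervals are 95% and cover counting error only.

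Of the 32 genes, 25 reached 20 UMIs over all cells of a library. In hepatocyte-like cells, all from the liver library, Fgg reached 974.8 CPM (675 to 1362) from 34 UMIs and Fgb 717 CPM (464 to 1058) from 25 UMIs. All primary barcodes of this filter together had 0 UMIs of Fga, Fgb and Fgg in 31420542. The liver macrophage-like cells had 3.16 CPM of Fgb and the epithelial-like cells 2.59. Liver barcodes removed by the mitochondrial limit held 554 UMIs of Fgb, against 235 in those within it.

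Barcodes of 1 to 100 UMIs, too few for a cell, gave a background level. Fgb was at 33.8 CPM in such primary barcodes (27.3 to 41.4) and 35.3 CPM in the liver library (29.5 to 42.0), and Alb at 162 and 145. The levels in macrophage-like and epithelial-like cells lay below it. For 8 liver genes, Alb and the members Fga, Fgb, Fgg, F2, Plg, Kng1 and Serpinc1, the UMIs of low barcodes were summed. In the primary library 92.64% of them were in barcodes that also had 1 to 100 UMIs in the liver library, against 49.92% of all UMIs in low barcodes. In the liver library the same shares were 80.73% and 41.59%. Low barcodes of the primary library thus carried liver transcripts that were scarce in its cells. Primary barcodes of the cell filter had 1 UMI of Alb, 20 of Serpinc1 and none of the others, and the source was not tested.

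**Figure D4:**
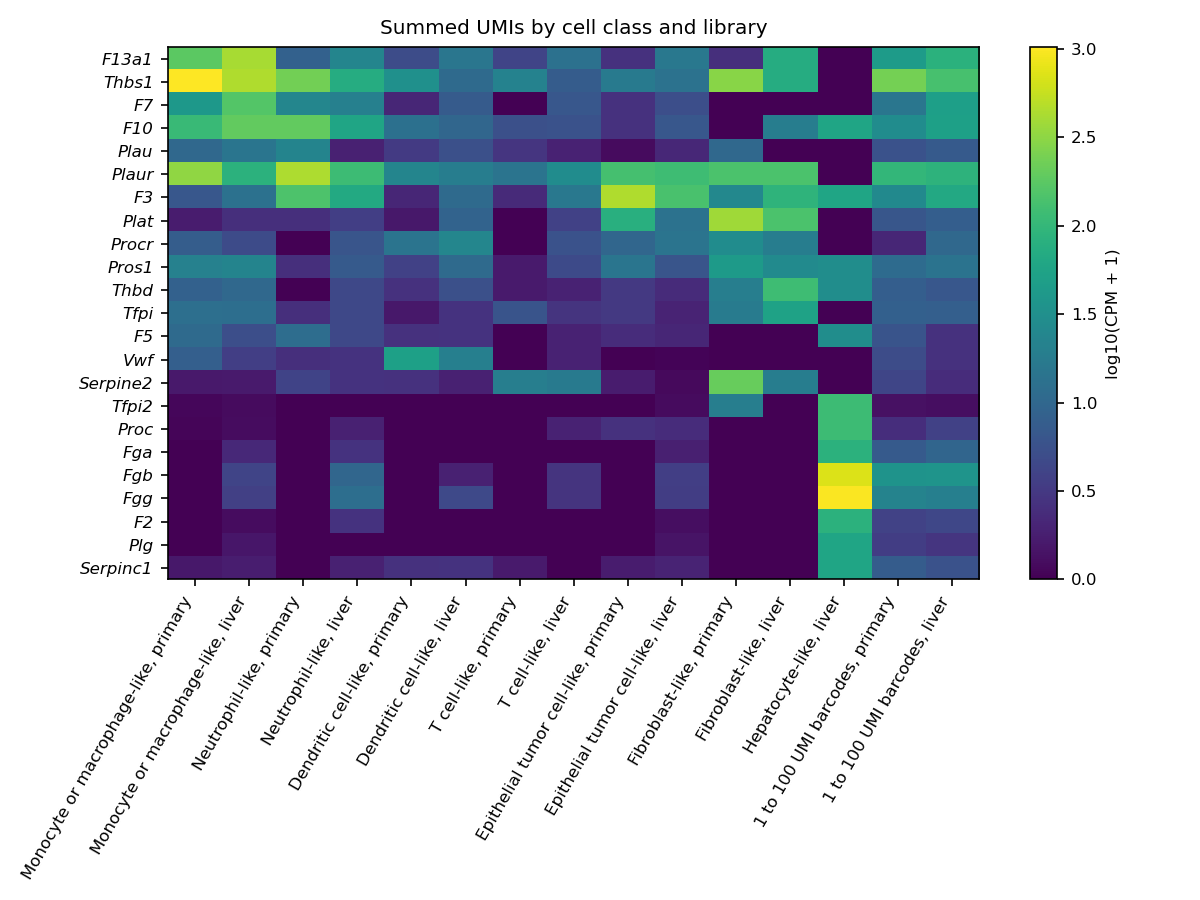
Summed UMIs of 23 of the 32 genes as log10(CPM + 1) (color) by cell class and library, with barcodes of 1 to 100 UMIs in the last columns. Among the classes drawn, which leave out acinar-like cells, F13a1, Thbs1 and F7 are brightest in macrophage-like cells, F10 in macrophage-like and primary neutrophil-like cells, F3 in epithelial-like cells of the primary library, and Fgb and Fgg in hepatocyte-like cells.

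F13a1 was carried mostly by macrophage-like cells, which had 180 CPM in the primary library (174 to 185) and 417 in the liver library (411 to 424). The 15 acinar-like cells of the primary library had 609 CPM from 54 UMIs, found in 13.33% of these cells. Epithelial-like cells had 14.9 CPM in the liver library, below the 83.5 CPM of its low barcodes. One macrophage-like cluster (cluster 0) had Pf4, a platelet gene, among its leading genes, so the sites are compared by cluster and not over the class. The platelet genes Gp9 and Itga2b were at 0.0839 and 0.503 CPM in liver macrophage-like cells, where Pf4 was at 1433. A further platelet gene, Ppbp, was mostly in macrophage-like cells, which held 208 of its 215 primary and 510 of its 621 liver UMIs. Pf4 was not particular to cluster 0, with 2309 CPM in liver cells of cluster 12 beside 1770 in those of cluster 0. F13a1 is itself a leading gene of cluster 0 and helped to define it.

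Across the 6 macrophage-like clusters with at least 30 cells of each library, F13a1 had no common direction. Its interval lay higher in the liver library in 3 clusters (3, 9 and 12), higher in the primary library in 2 (8 and 13), and overlapped in cluster 0. In cluster 9, led by the lipid-handling genes Fabp4 and Gpnmb, it was 173 CPM in the primary (147 to 203) and 579 in the liver library (561 to 598). In cluster 13, led by the resident macrophage gene Cd5l, it was 668 CPM (608 to 732) against 255 (238 to 274). The part of macrophage levels in the bulk fall of F13a1 was not tested.

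F7 and F10 were also macrophage transcripts in these data. In the liver library macrophage-like cells had 158 CPM of F7 (154 to 162) and 195 CPM of F10 (191 to 200), against 4.31 and 5.64 in epithelial-like cells and 49.0 and 50.9 in low barcodes. F7 lay higher in the liver library in 3 of the 6 clusters (0, 9 and 13) and overlapped in 3, and F10 lay higher in 4 (3, 8, 9 and 13) and overlapped in 2. Neither gene was higher in the primary library in any of the 6. F7 reached 274 CPM in cluster 9 of the liver library against 49.0 in the primary library, and F10 was highest in cluster 12, at 371 and 344 CPM, a cluster led by Nos2, Mmp12 and Chil3.

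Thbs1 was at 1023 CPM in macrophage-like cells of the primary library (1010 to 1036) and at 443 in those of the liver library (436 to 450). Among primary cells cluster 12 had 2088 CPM and cluster 4, with 714 primary and 18 liver cells, had 1540. In the liver library the Cd5l cluster 13 was highest at 1908 CPM, against 835 in its primary cells. Thbs1 lay higher in the primary library in 3 clusters (0, 8 and 12) and higher in the liver library in 2 (9 and 13). F5 was low throughout, with 24.8 and 27.3 CPM in cluster 13 as its highest levels in clusters shared by both libraries.

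**Figure D5:**
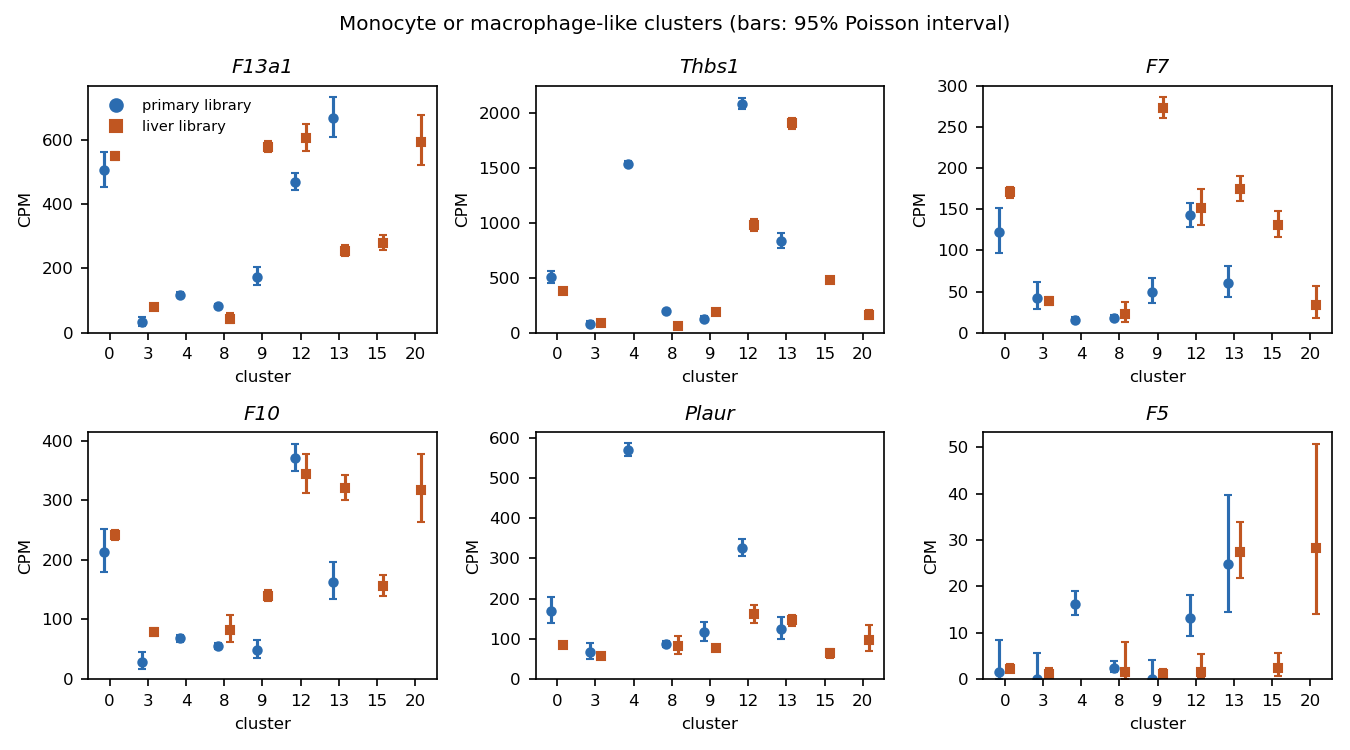
CPM with 95% Poisson intervals of F13a1, Thbs1, F7, F10, Plaur and F5 in each macrophage-like cluster with at least 30 cells of a library (blue circles, primary; orange squares, liver). Cluster 4 (primary only here) is high in Thbs1 and Plaur, and cluster 9 is higher in F13a1 and F7 in the liver library.

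Plaur was found in myeloid and epithelial-like cells. Neutrophil-like cells had 432 CPM in the primary library (383 to 486) and 116 in the liver library (97.2 to 138), with 97.5 and 86.8 CPM in low barcodes. After thinning to 1000 UMIs per cell, 26.7% of 221 primary and 10.39% of 510 liver neutrophil-like cells had a Plaur UMI, from 48.87% and 19.8% unthinned. Macrophage cluster 4 had 571 CPM (555 to 586), and Plaur lay higher in the primary library in 3 of the 6 shared clusters (0, 9 and 12) and overlapped in the other 3. Epithelial-like cells held 3262 of the 6561 Plaur UMIs of the liver library (49.72%). In epithelial cluster 10 Plaur was at 217 CPM in the primary (198 to 238) and 245 in the liver library (236 to 255), and in cluster 11 at 65.5 (45.6 to 91.0) and 115 (99.4 to 132). The intervals of the libraries overlapped in cluster 10 and were apart in cluster 11. In epithelial clusters 6 and 7 they also overlapped, at 23.4 and 27.8 CPM, and at 55.3 and 31.4 CPM. The part of these cell types in the bulk fall of Plaur was not tested.

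F3 was led by epithelial-like cells, at 451 CPM in the primary (431 to 471) and 140 in the liver library (135 to 144). Over barcodes of any class, those removed by the mitochondrial limit had 30.4 CPM of F3 in the primary and 125.4 in the liver library. Those within the limit had 68.3 and 65.15. In the liver library the removed barcodes held 4477 UMIs of F3 and those within the limit 4499. F3 is a leading gene of epithelial cluster 10, where it was 825 CPM (788 to 865) in the primary against 292 (282 to 303) in the liver library. In clusters 6, 7 and 11 the sites' intervals overlapped, at 28.3 and 28.4, 60.3 and 45.5, and 144 and 110 CPM. The clusters' sizes differed between the libraries: clusters 1 and 2 held 1124 and 763 liver cells and 12 and 5 primary cells. The part of cluster makeup in the class levels was not tested. Neutrophil-like cells had 146 CPM of F3 in the primary library, above its low barcodes at 26.2, whereas 65.5 CPM in liver neutrophil-like cells lay at the 64.0 CPM of its low barcodes. F10 in neutrophil-like cells was at 191 and 58.5 CPM, and the order turned to 82.3 and 140 with a minimum of 3000 UMIs.

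Plat was highest in the few fibroblast-like cells, at 378 CPM in 14 primary cells (332 to 429) and 143 in 15 liver cells (81.9 to 233). In epithelial cluster 10 it was 142 CPM (127 to 159) in the primary and 22.7 (19.9 to 25.7) in the liver library. Procr in the same cluster went the other way, at 10.7 CPM (6.79 to 16.1) against 24.8 (21.9 to 28.0). Serpine2 was at 204 CPM in primary fibroblast-like cells (171 to 242) and at 18.5 and 15.9 CPM in T cell-like cells, where low barcodes had 3.27 and 1.39. In bulk, the fibroblast genes Col1a1, Col3a1 and Pdgfrb summed to 668, 248 and 264 CPM in the primary and 840, 1058 and 1064 in the liver libraries, and their part in the bulk levels of Plat and Serpine2 was not tested.

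Vwf was highest in dendritic cell-like cells, among all classes over which it reached 20 UMIs. In cluster 16, led by Xcr1 and Clec9a of cross-presenting dendritic cells, it was 52.2 CPM in 63 primary cells (41.9 to 64.2) and 24.7 in 95 liver cells (15.3 to 37.8). Most Vwf UMIs were nevertheless in macrophage-like cells, 154 of 245 in the primary and 94 of 121 in the liver library. In macrophage cluster 8 Vwf was 13.4 CPM (10.8 to 16.4) in the primary library. In the liver library that cluster had 23.2 CPM (13.3 to 37.7), which overlapped cluster 16. The endothelial gene Cdh5 had 0 UMIs in the 67 primary and 2 UMIs in the 136 liver dendritic cell-like cells. The upper 95% bound for the primary count of 0 was 2.08 CPM. Pros1, Thbd, Tfpi and Plau were low in macrophage-like cells, at 21.6, 9.42, 11.4 and 13.7 CPM in the liver library beside 13.1, 5.56, 7.23 and 6.12 in low barcodes. These cells still held most of the UMIs of each gene, 82.55% to 88.69% in the primary and 81.37% to 92.45% in the liver library. Some clusters were higher: Pros1 had 74.4 CPM in primary and 42.0 in liver cells of cluster 13. Thbd had 27.7 CPM in liver cells of cluster 13, and Plau 31.3 in those of cluster 12.

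The remaining genes had few UMIs in the cells kept. For some of them the liver barcodes over the mitochondrial limit held more: 77 UMIs of Plg against 32 within the limit, 63 against 23 of F2, and 278 against 89 of Kng1. Across all cells of the liver library F2, F9, F11, F12, F13b, Klkb1, Serpind1, Plg, Serpinf2, Cpb2 and Tfpi2 had from 1 UMI (F11) to 32 UMIs (Plg) each. In the primary library 12 of the 15 Tfpi2 UMIs were in the 14 fibroblast-like cells, at 18.5 CPM (9.57 to 32.4). Proc had 39 UMIs in liver epithelial-like cells (1.40 CPM) and Kng1 39 (1.40 CPM), both under 2 CPM. Of the 32 genes, 8 had 0 UMIs in all primary cells, and every gene had at least 1 UMI in the liver cells.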

How the data were processed

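Bulk tables deposited by the authors hold raw counts per gene symbol and FPKM for 6 libraries, and each deposited single-cell matrix holds UMI counts of 6794880 barcodes. These were made with Cell Ranger 3.0.0, per the file headers, on mm10, per the submitters' processing notes. The bulk aligner and counter are not given in the sources used here. Members, gene lists and motifs were chosen with earlier results of these data known.

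Counts were tested in edgeR 4.0.16 (R 4.3.3; filterByExpr, TMM, robust quasi-likelihood fit, two-sided, Benjamini-Hochberg over 16487 genes), after a check on simulated counts. DESeq2 1.42.0, limma 3.58.1, other scalings, other filters and left-out libraries were alternatives. All 32 members were named, and of the other pathway genes the 3 called genes of lowest p per direction.

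Cells needed 1500 UMIs, 200 genes and at most 10% mitochondrial UMIs. These limits removed 5208 of 7490 primary and 4887 of 12505 liver barcodes for mitochondrial UMIs. Scrublet's automatic threshold marked only 5 and 1 barcodes and was replaced by a score limit of 0.25, which removed 28 and 109. Cells were clustered in scanpy 1.11.5 (2000 genes, 30 components, 15 neighbors, Leiden resolution 1, no integration). Clusters were named from markers by a score whose form was adjusted after clusters were seen, with the member Vwf left out of the endothelial markers, and 18 primary and 97 liver cells stayed unnamed.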

Additional observations from a re-analysis of the deposited data

How the results depend on the processing

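With 3 libraries per site, the count of members higher in the liver tumors was 23 in every alternative tried. The count of members lower was 3, and it was 4 with DESeq2, limma-voom, upper-quartile factors or no filter, which added Plat, and 0 to 4 when a library was left out: 1 without liver replicate 1 and 0 without liver replicate 2. The labels do not say whether replicate numbers pair the libraries. Same-numbered deviations correlated at -0.196, 0.279 and 0.103, which cannot decide it without a reference for unpaired libraries. A replicate block gave 23 members higher and 3 lower, and 2703 and 873 over all genes. Over all genes 2755 were higher and 1032 lower. Leaving out a library gave 1810 to 3346 higher and 134 to 1468 lower, with the fewest without liver replicate 2, and upper-quartile factors gave 2612 higher and 1689 lower. Of 448 log2 changes of single members under alternatives, 430 kept their direction and side of the threshold, 5 lost the call, 7 gained it and 6 turned sign. Those that turned were not called in any setting: Plau (0.065 without primary replicate 1, 0.093 without primary replicate 3, 0.03 without liver replicate 2 and 0.012 on log2(FPKM + 0.1)), Thbs1 (0.147 without primary replicate 1) and Serpine2 (-0.065 without primary replicate 2). Over the left-out libraries the log2 change of Plau ran from -0.307 to 0.093, that of Thbs1 from -0.33 to 0.147 and that of Serpine2 from -0.065 to 0.602. Procr was called without primary replicate 2 (log2 change -0.76, adjusted p = 0.0295). In the single cells, 79 of 104 values stayed within the counting interval of the value reported. With a minimum of 3000 UMIs the Plaur level of primary macrophage-like cells was 151 CPM in place of 326, and Thbs1 was 688 in place of 1023. For these, the cause was not tested.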
